A study of Mus musculus with 60 samples.

Results

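Messenger RNAs of the cytosolic ribosomal proteins were followed in primary mouse hepatocytes with and without Met, the receptor of hepatocyte growth factor (HGF). The genes were taken by symbol: every array probe annotated to an Rpl or Rps gene or to Rplp0, Rplp1, Rplp2 or Rpsa, with pseudogenes left out and, for each gene, the probe with the most values. This gave 72 probes for 68 genes, of 14442 genes named on the array, and comprised 24 small subunit and 44 large subunit proteins. Included were 5 genes that are paralogs of a ribosomal protein (Rpl22l1, Rpl39l, Rpl3l, Rpl7l1 and Rps27l). The 68 genes lie on 18 chromosomes. Testing a gene needed a value from 2 or more replicates of every group, which 54 of the 68 had (19 small subunit, 35 large subunit).

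The knock-out cells (KO) were labelled Alb-Cre +/-; Met Fl/Fl, strain 129SV/C57BL6, so that Cre is driven by the albumin promoter, which is active in hepatocytes. The control cells (WT) were labelled heterozygous for Cre recombinase, strain C57BL, so Cre was shared by both groups while genotype and strain changed together. Cells of either genotype came from livers of male mice of 9 to 10 weeks, were plated with 10% serum, kept after 4 h in serum-free medium with the ITS supplement, and left untreated (0 h) or treated from the following day with HGF, which was left on for 0.5 h, 2 h, 12 h or up to 24 h. The dose is labelled 50 ng/ml in one field and 50 nM in another. Each of the 10 groups had 3 replicates, labelled as cultures from 3 mice. Each replicate was hybridised on 2 two-colour arrays, once labelled with Cy5 and once with Cy3, against pooled WT hepatocyte RNA. A level below is a log2 ratio of the sample to that pool, with 0 meaning equal to the pool, and a difference is a log2 difference between 2 groups. Such ratios give no amount of RNA per gene, so levels are compared between groups and not between genes.

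Ribosomal proteins join ribosomal RNA in the small and large subunits of the ribosome. Their messenger RNAs belong to the TOP class: they begin with a cytosine followed by a run of pyrimidines, through which mTOR signalling controls their translation. HGF binding to Met, a receptor tyrosine kinase, activates growth signalling in hepatocytes and is a mitogen for them. Growing cells make more ribosomes, and the TOP messages are known mainly for regulation at translation rather than at messenger RNA level.

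The annotated starts of members described below are shown to let the TOP run be seen where RefSeq places it. Of the 68 genes, 57 were matched by symbol in the RefSeq promoter table (build GRCm38.p6). Each sequence runs 5′ to 3′ on the gene's strand, from 20 bases before the start to 20 bases into the transcript. Capitals mark the pyrimidine run that begins with C at the start itself, and a sequence without capitals has no such run at that position.
Rpl28 (chr7:4792945-4792984, plus strand): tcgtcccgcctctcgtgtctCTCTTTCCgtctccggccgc
Rpl15 (chr14:18270967-18271006, minus strand): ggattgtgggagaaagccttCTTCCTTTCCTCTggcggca
Rps6 (chr4:86857348-86857387, minus strand): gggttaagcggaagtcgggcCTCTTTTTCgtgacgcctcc
Rps18 (chr17:33955646-33955685, minus strand): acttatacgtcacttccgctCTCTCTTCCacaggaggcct
Rpl13a (chr7:45128726-45128765, minus strand): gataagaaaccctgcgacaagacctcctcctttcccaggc
Rpl26 (chr11:68901546-68901585, plus strand): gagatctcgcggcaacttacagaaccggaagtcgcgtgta
Rps13 (chr7:116334171-116334210, minus strand): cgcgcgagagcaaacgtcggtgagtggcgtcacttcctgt
Rpl10 (chrX:74270796-74270835, plus strand): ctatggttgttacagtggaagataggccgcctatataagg

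A TOP start, defined as C at the annotated start followed by at least 4 pyrimidines, was present in 11 of the 57 members (19.3%), against 813 of all 27025 genes in that table (3.01%). The 11 were Rpl14, Rpl15, Rpl28, Rpl35, Rpl35a, Rpl38, Rplp2, Rps10, Rps18, Rps21 and Rps6. A window without the run says only that these letters are not at the annotated position, which can differ from the start used in hepatocytes. The letters CCGGAAG, a core bound by ETS family factors, were found on either strand between 250 bases before and 50 after the start in 25 of 57 members (43.9%), against 9.93% of all genes. AAGATGGC, a core of YY1 sites, was found in 4 of 57 (7.02%), against 3.19% of all genes.

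All values carry a strong dye effect that bears on the ribosomal protein genes. On the arrays with the sample in Cy5 the median of the 54 genes was above 0 on 26 of 30 arrays (range -0.89 to 1.25), and with the sample in Cy3 it was below 0 on 25 of 30 (range -0.83 to 0.25). Averaging the 2 arrays of a replicate balances the dyes, and the medians of the differences are given by dye as well. Over all probes the 2 arrays of a replicate correlated negatively in 23 of 30 replicates. The 2 dye orientations were taken to run the same way from Aldh1a1, Prelid2 and Junb. Their KO minus WT difference had the same sign on Cy5 and Cy3 arrays at 5 of 5 times. For Prelid2 the values at 2 h were small (-0.11 on Cy5 and -0.10 on Cy3). These genes were chosen for large differences in the same data, and inverted ratios would match as well. That the values are sample over pool is therefore assumed. The Cy5 array of WT 0 h replicate 3 correlated below -0.3 with 19 arrays of the same dye and has no settled direction, and comparisons that use untreated WT cells are therefore also given with its sign turned. The array numbers fall into 4 sets (A to D): set D holds the 0.5 h replicates and all but 1 at 2 h, set C holds every 12 h replicate, and the untreated and 24 h replicates are spread over the other sets. WT 24 h replicate 2 has its Cy5 array in set C and its Cy3 array in set B. The effect of 0.5 and 2 h of HGF against untreated cells thus cannot be told apart from that of the array set. The Met probe did not separate the genotypes: its group means were 0.09 to 0.42 in KO and -0.09 to 0.45 in WT, with adjusted p of 0.41 or more at each time. The sources used here do not place the probe inside or outside the deleted part of the gene, so it checks no label.

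The ribosomal protein genes moved together over the time course, and the highest level of most of them was in WT cells at 24 h of HGF. The median over the 54 genes was -0.09 in KO and -0.13 in WT untreated cells, -0.12 in KO and 0.18 in WT at 0.5 h, -0.06 in KO and 0.01 in WT at 2 h, 0.12 in KO and 0.29 in WT at 12 h, and 0.13 in KO and 0.44 in WT at 24 h. The highest of the 10 group means fell in WT at 24 h for 36 of the 54 genes, and the lowest in untreated WT for 20. The 3 replicate medians were 0.14, 0.38 and -0.08 in KO at 24 h, against 0.51, 0.58 and 0.20 in WT at 24 h. They were -0.05, -0.12 and -0.06 in untreated KO, against -0.01, 0.05 and -0.47 in untreated WT. Replicate 3 of untreated WT was the lowest of all 30 replicates and replicate 2 of WT at 24 h the highest.

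**Figure D1:**
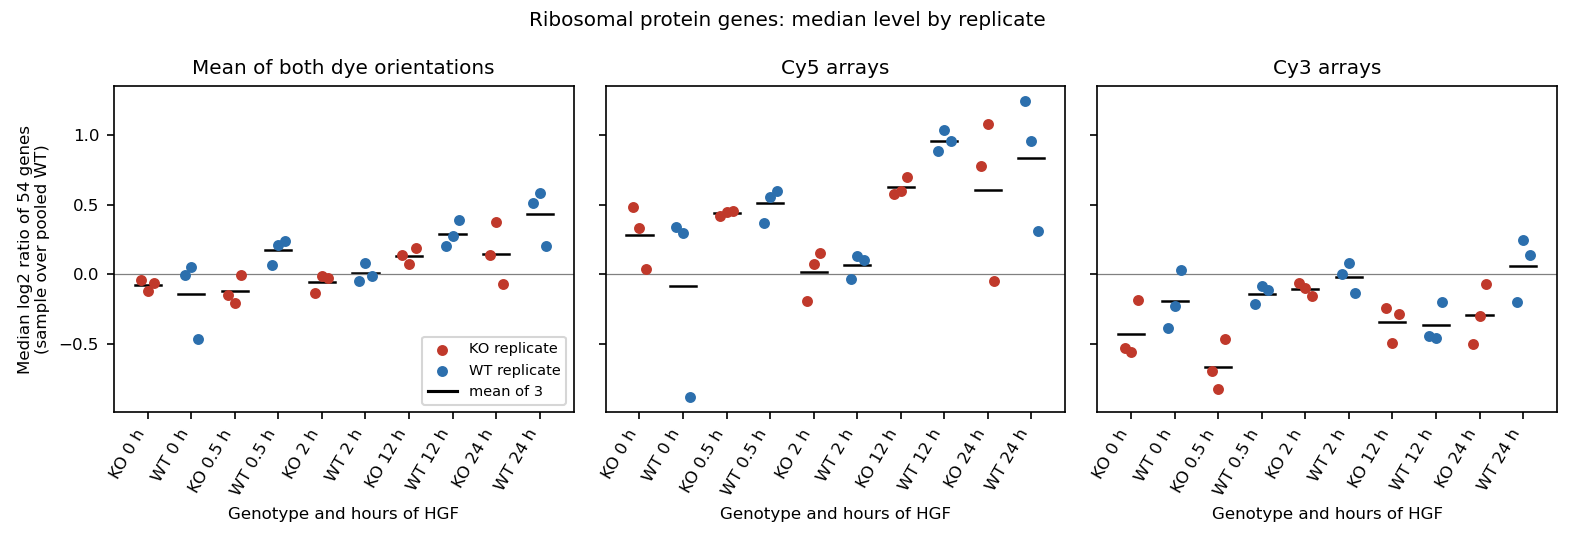
Median log2 ratio to pooled WT RNA over the 54 tested ribosomal protein genes (vertical axis) for each replicate (points; KO red, WT blue) of the 10 genotype and HGF time groups, with the mean of 3 as a bar; panels give the mean of both dyes, the Cy5 arrays and the Cy3 arrays. Cy5 medians lie mostly above 0 (26 of 30) and Cy3 medians mostly below 0 (25 of 30), and replicate 3 of WT 0 h is the lowest in the left panel at -0.47.

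Across the 30 replicates the median correlation between pairs of the 54 genes was 0.74 (Pearson, 1431 pairs; 0.90 on Cy5 arrays and 0.61 on Cy3 arrays). Set against the median of the other members, a member had a median correlation of 0.89. Probes outside the list had 0.002 with the ribosomal protein median. Arrays were median-centred, so a value near 0 over all other probes is no test of the members. The points behind these correlations share arrays, dye effects and array sets, so the values are descriptions. The genes most like the rest were Rpl5 (median correlation with the other members 0.87), Rpl9 (0.86) and Rps4x (0.86). The genes least like the rest were Rps18 (-0.47), Rps24 (-0.25), Rpl22l1 (-0.16), Rpl37 (-0.12) and Rpl7l1 (-0.04). The SD of the 10 group means had a median of 0.22 over the members, against 0.18 over all probes tested.

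**Figure D2:**
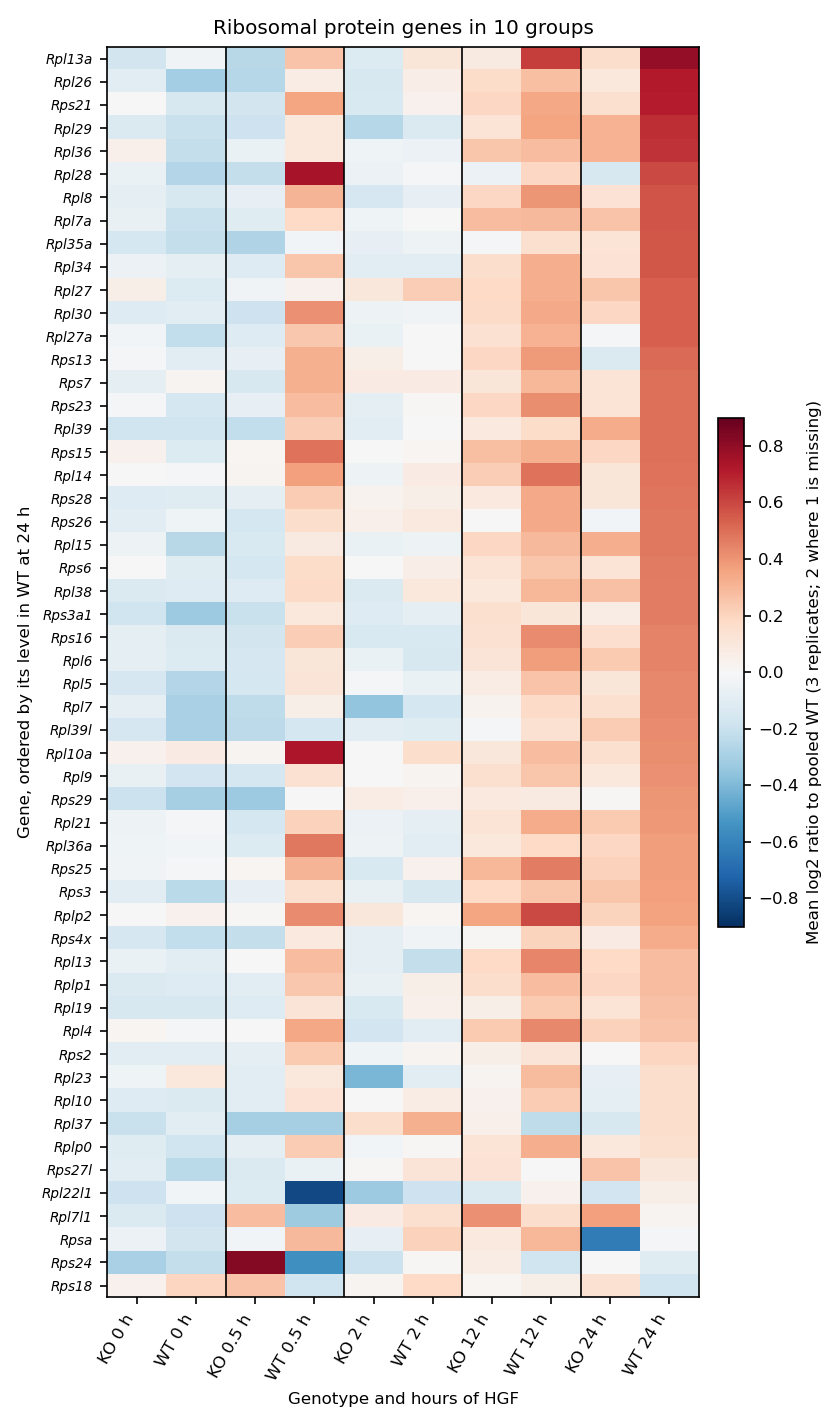
Mean log2 ratio to pooled WT RNA (colour; red above and blue below 0) of the 54 tested ribosomal protein genes (rows, ordered by the level in WT at 24 h) in the 10 groups (columns, KO left of WT at each time). The WT 24 h column is the highest for 36 of 54 genes, and Rps18, Rps24, Rpsa, Rpl7l1 and Rpl22l1 have the lowest WT 24 h levels, from -0.18 to 0.05.

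After 24 h of HGF, WT hepatocytes had higher levels of most ribosomal protein messenger RNAs than untreated WT hepatocytes. Untreated cells were sampled at 0 h only. HGF and longer time in culture therefore cannot be told apart in this or any other comparison with untreated cells. Of the 54 genes, 33 rose and none fell, at a Benjamini-Hochberg adjusted p under 0.05 over all 14580 probes (limma), where 8.72% of all probes were called in either direction and 3.96% were called higher. The difference was above 0 in 53 of 54 genes with a median of 0.58, against -0.03 over all probes. Both subunits took part, with 13 of 19 small subunit and 20 of 35 large subunit genes called and medians of 0.58 and 0.59. The called genes ranged from 0.47 to 1.02, which is 1.39-fold to 2.03-fold. In 29 of the 33 the replicates at 24 h did not overlap the untreated ones, as in 32 of all 54 genes. Calls and overlap use the same values, and overlap was not counted over all probes, so this count adds no support. All 33 were higher on both dyes, although the median over the 54 genes was larger on Cy5 arrays (0.89) than on Cy3 arrays (0.22).

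Rpl26, a large subunit protein that in human cells also binds p53 messenger RNA, had the largest change. Its levels were 0.53, 1.21 and 0.41 at 24 h, against -0.13, -0.17 and -0.62 in untreated WT cells. The groups did not overlap, with replicate 2 the highest at 24 h and replicate 3 the lowest before HGF, and the difference was 1.02 ± 0.18 (SE, adjusted p = 0.000458 in limma). The Rpl26 call was lost with the sign of the doubted Cy5 array turned and with only the groups compared. Over 18 alternatives its difference was 0.54 to 1.17, with adjusted p up to 0.163 in limma. Rpl29, a heparin-binding protein of the large subunit, had 0.78, 0.69 and 0.52 at 24 h, against -0.08, -0.10 and -0.42 untreated. All its replicates at 24 h lay above all untreated ones, and it had the smallest adjusted p of the members (0.86 ± 0.13, adjusted p = 5.83e-05 in limma).

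Rpl36, a further large subunit protein, had 0.48, 1.15 and 0.33 in WT at 24 h, against -0.04, -0.18 and -0.42 in untreated WT cells, a difference of 0.87 ± 0.16. Its call was lost in 3 of 18 alternatives, among them the turned sign of the doubted Cy5 array. Over the alternatives its difference was 0.31 to 1.03. Rpl13a, a large subunit protein that in human monocytes also silences translation of inflammatory messages, had 0.86, 1.04 and 0.47 at 24 h, against 0.24, 0.11 and -0.44 untreated, a difference of 0.82 ± 0.15. In both genes the groups did not overlap. Rps6, the small subunit protein phosphorylated by S6 kinases downstream of mTOR, had 0.50, 0.62 and 0.29 at 24 h, against -0.04, 0.13 and -0.42 untreated. This was a rise of 0.58 ± 0.14 (adjusted p = 0.00782 in limma), at the median of the members. Rpl5, which with 5S ribosomal RNA and Rpl11 can bind Mdm2, had 0.58, 0.47 and 0.25 at 24 h, against -0.04 and -0.49 in the 2 untreated WT replicates measured. It rose by 0.70 ± 0.14 (adjusted p = 0.00289 in limma).

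The rise was not called in every member. The stalk proteins of the large subunit, which recruit translation factors, had differences of 0.32 ± 0.18 (Rplp0), 0.39 ± 0.16 (Rplp1) and 0.33 ± 0.18 (Rplp2) at 24 h in WT, with adjusted p from 0.15 to 0.31 in limma. Their Cy5 and Cy3 arrays went opposite ways, with Rplp0 at 0.86 on Cy5 and -0.21 on Cy3. Rps18, a protein of the small subunit head, was the 1 gene below 0, with -0.46, -0.28 and 0.20 at 24 h, against 0.34, 0.00 and 0.22 untreated. Its difference of -0.37 ± 0.21 did not pass the test (adjusted p = 0.33 in limma), and its replicates overlapped.

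The count of 33 depends on single WT replicates. It was 14 without WT 0 h replicate 3, 19 without WT 24 h replicate 2, 6 with the sign of the doubted Cy5 array turned (median 0.23), and 0 when the fit held only the 6 replicates compared, where Rpl29 had an adjusted p of 0.11. With replicates assigned to sets by their Cy5 array, 23 genes were called in set C (median 0.52). With replicates that have both arrays in set C, which leaves out WT 24 h replicate 2 and keeps 1 replicate at 24 h against 2 untreated, 10 genes were called (median 0.48), 9 of them among the 33, and the replicate medians differed by 0.49. The lone 24 h replicate is assumed there to vary like the other groups. Replicate 3 at 24 h and replicate 3 untreated, both in set B, differed by 0.67. That untreated replicate holds the Cy5 array without a settled direction, with medians of -0.89 on Cy5 and 0.03 on Cy3. The value of 0.67 therefore depends on the sign of that array.

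**Figure D3:**
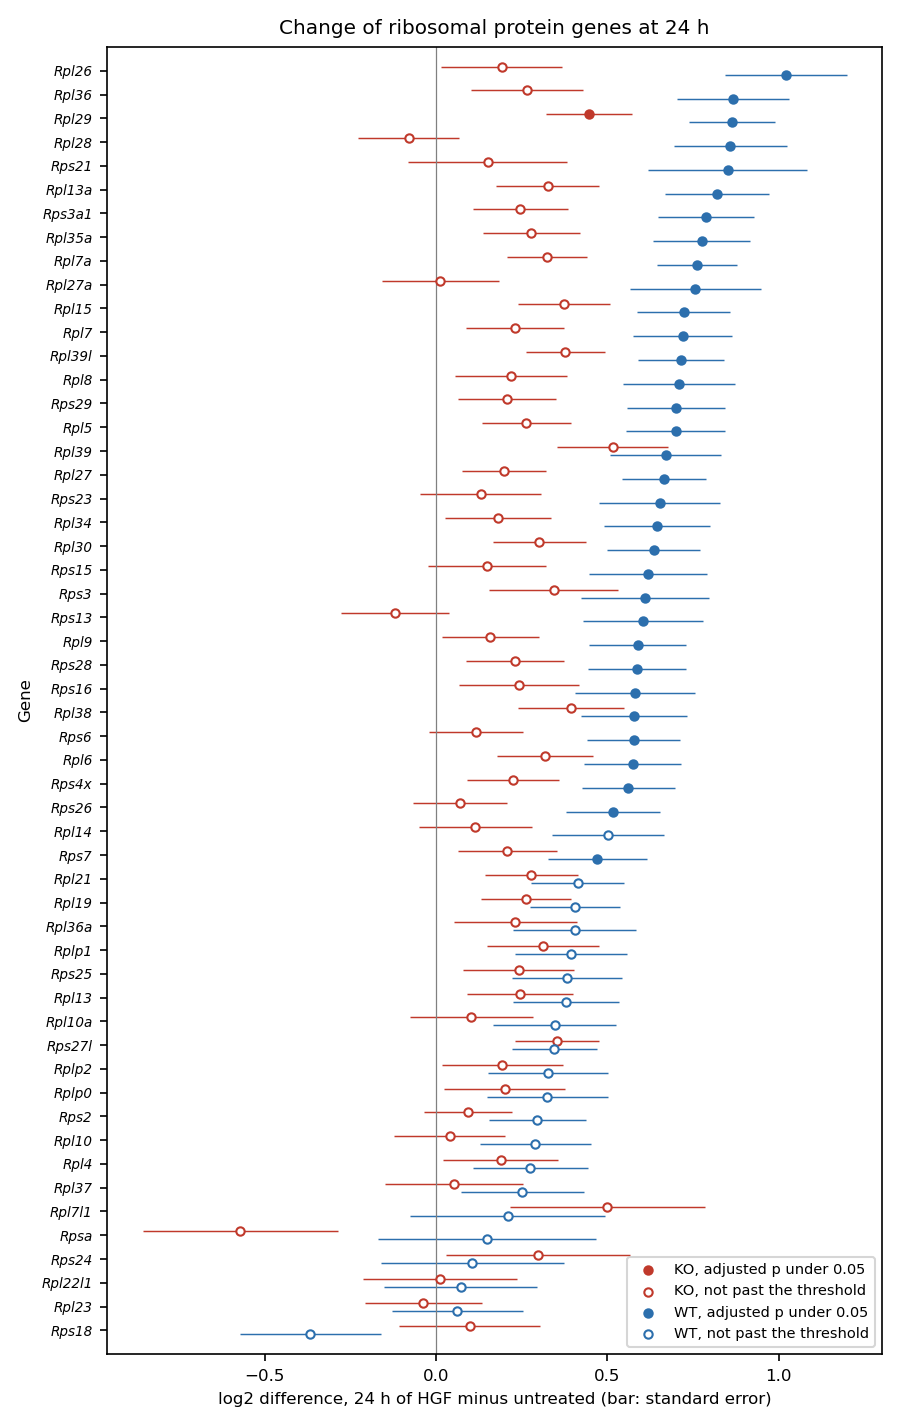
Log2 difference between 24 h of HGF and untreated cells (horizontal axis, bars are standard errors) for the 54 tested ribosomal protein genes (rows) in KO (red) and WT (blue) cells; filled points have an adjusted p under 0.05. The filled points are 33 WT values and 1 KO value, Rpl29 at 0.45.

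In KO hepatocytes the same comparison gave 1 called gene, Rpl29, of 54, where 3.48% of all probes were called, and 10 genes had an unadjusted p under 0.05. Rpl29 had 0.30, 0.54 and 0.10 in KO at 24 h, against -0.06, -0.16 and -0.18 in untreated KO, with no overlap (0.45 ± 0.13, adjusted p = 0.0466 in limma). This call was lost in 9 of 17 alternatives, among them leaving out each of the 3 untreated KO replicates. The difference was above 0 in 50 of 54 genes with a median of 0.22 (0.32 on Cy5 and 0.16 on Cy3), and 38 genes were above 0 on both dyes. The gene with the largest value was Rpl39 at 0.52, which was not called.

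The genotype difference of the 24 h response, KO minus WT, was tested directly and was called for Rpl28 alone of the 54 genes, where 0.727% of all probes were called. Rpl28, a large subunit protein with no counterpart in Saccharomyces cerevisiae, had -0.16, -0.05 and -0.21 in KO at 24 h, against 0.39, 0.92 and 0.48 in WT at 24 h. Untreated, it had -0.04, -0.09 and -0.05 in KO, against -0.05 and -0.47 in the 2 WT replicates measured. The KO replicates at 24 h all lay below 0 and the WT replicates all above 0.3. The response was -0.08 ± 0.15 in KO and 0.86 ± 0.16 in WT, and the difference of -0.94 ± 0.22 had an adjusted p of 0.0438 in limma, lost in 17 of 24 alternatives (adjusted p 0.0239 to 0.572). Over the 54 genes the difference of responses was below 0 in 50 with a median of -0.34, but its median was -0.60 on Cy5 and -0.06 on Cy3 arrays, and it was -0.05 with the sign of the doubted Cy5 array turned.

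At 24 h of HGF itself, where KO and WT cells can be set against each other without the untreated replicates, 5 of 54 genes were lower in KO and none higher (limma), where 4.77% of all probes were called in either direction. The difference was below 0 in 50 of 54 genes, with a median of -0.29 against 0.00 over all probes, and 45 genes were below 0 on both dyes. The medians were -0.24 on Cy5 and -0.34 on Cy3 arrays. Replicates with both arrays in set C (2 KO, 1 WT) differed by -0.26 in their medians, and the KO and WT replicates in set B (1 each) by -0.28. No gene was called in that set C comparison. Fewer hepatocytes and less messenger RNA per hepatocyte cannot be told apart in such bulk samples.

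The 5 genes were Rpl28 (-0.74 ± 0.15, adjusted p = 0.003), Rps13 (-0.64 ± 0.16, 0.0169), Rpl13a (-0.63 ± 0.15, 0.0134), Rpl26 (-0.62 ± 0.18, 0.0434) and Rps26 (-0.50 ± 0.14, 0.0338), all p from limma. All 5 were also among the 33 genes higher at 24 h in WT; the 2 comparisons share the WT 24 h replicates. Rpl13a had 0.03, 0.38 and 0.07 in KO at 24 h, against 0.86, 1.04 and 0.47 in WT at 24 h. Rps13, a small subunit protein, had 0.00, 0.03 and -0.42 in KO, against 0.61, 0.84 and 0.08 in WT. Rps26, a small subunit protein at the exit of the messenger RNA channel, had -0.11, 0.18 and -0.14 in KO, against 0.43, 0.73 and 0.26 in WT. In none of the 5 genes did the genotypes overlap, which was read from the values that gave the calls. Over all 54 genes 15 had no overlap, and overlap was not counted over all probes. The highest WT value was replicate 2 in each of the 3 genes just given.

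The 24 h groups were the most variable, with a residual SD over all probes of 0.43 in KO and 0.36 in WT, against 0.17 in either genotype at 2 h. The count of 5 was 0 when each group was weighted by its own spread, 0 in a fit of the 6 replicates alone, 1 without WT 24 h replicate 2, 16 without WT 24 h replicate 3 and 8 without KO 24 h replicate 2.

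At 12 h of HGF in WT, 9 of 54 genes were called higher than untreated and none lower, where 5.81% of all probes were called. All 9 encode large subunit proteins: Rpl13a, Rpl29, Rpl15, Rpl13, Rpl6, Rpl5, Rpl7a, Rpl27 and the paralog Rpl39l. Of these, 8 were also called at 24 h. The subunits differed little in size of change, with medians of 0.44 over 19 small subunit genes and 0.45 over 35 large subunit genes. The difference was above 0 in 18 and 34 of them. Unadjusted p was under 0.05 in 13 and 29 of them (limma). Rpl13a had 0.54, 0.57 and 0.76 at 12 h, against 0.24, 0.11 and -0.44 untreated (0.66 ± 0.15, adjusted p = 0.0116 in limma). Rpl15, a large subunit protein, had 0.21, 0.25 and 0.42 at 12 h, against -0.07, -0.12 and -0.56 untreated (0.55 ± 0.13, adjusted p = 0.0178 in limma). The groups did not overlap in either gene.

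The 2 dyes diverged at 12 h: the median difference was 1.05 on Cy5 and -0.17 on Cy3 arrays, and 3 of the 9 called genes, Rpl13a (0.01 on Cy3), Rpl29 (0.07) and Rpl39l (0.40), were above 0 on both. The count was 1 without WT 0 h replicate 3, 1 with the sign of its Cy5 array turned (median 0.13), 0 within array set C and 35 with 3 dye profiles regressed out. In KO at 12 h no gene was called against untreated KO (limma; 3 with an unadjusted p under 0.05; 0.13% of all probes called). The difference was above 0 in 53 of 54 genes, with a median of 0.21 (0.33 on Cy5 and 0.11 on Cy3), and 40 genes were above 0 on both dyes. Between KO and WT at 12 h no gene was called (2 with an unadjusted p under 0.05; 2.84% of all probes called), and the median was -0.17 (-0.32 on Cy5 and 0.00 on Cy3, with 25 genes of opposite sign on the 2 dyes). Rpl13a came nearest, with 0.13, 0.01 and 0.11 in KO, against 0.54, 0.57 and 0.76 in WT (-0.54 ± 0.15, adjusted p = 0.0505 in limma).

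At 0.5 h of HGF, KO cells had lower levels than WT cells in 49 of 54 genes, with a median of -0.31 against -0.04 over all probes. The test called 3 genes lower and 1 higher (limma), where 4.30% of all probes were called. The called genes were Rpl28 (-0.96 ± 0.15, adjusted p = 0.000997), Rpl10a (-0.71 ± 0.18, 0.0256), Rpl30 (-0.60 ± 0.14, 0.0134) and, higher in KO, Rps24 (1.38 ± 0.27, 0.00486). Rpl28 had -0.16, -0.33 and -0.17 in KO, against 0.40, 0.79 and 1.03 in WT. Rpl10a, a protein of the mobile L1 stalk, had -0.06, -0.03 and 0.15 in KO, against 0.41, 0.77 and 1.01 in WT. Rpl30, a large subunit protein, had -0.18, -0.27 and -0.11 in KO, against 0.35, 0.35 and 0.54 in WT. In each gene all KO replicates lay below all WT replicates.

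The difference at 0.5 h came mostly from the Cy3 arrays, with a median of -0.50, against -0.09 on Cy5 arrays. Rpl28 differed by -1.81 on Cy3 and -0.11 on Cy5, and Rpl10a by -1.40 on Cy3 and -0.01 on Cy5. With 3 dye profiles regressed out the median was -0.03 and 1 gene was called, Rpl28, while weighting each group by its own spread called 34 genes. All 6 replicates lie in array set D.

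Rps24, a small subunit protein mutated in some patients with Diamond-Blackfan anaemia, had the largest SD of the group means (0.36). At 0.5 h it had 0.67, 1.13 and 0.69 in KO, against -0.16, -0.82 and -0.68 in WT, and it was higher in KO on both dyes (0.86 on Cy5 and 1.90 on Cy3). At the other 4 times its genotypes overlapped and differed by -0.21 to 0.25. In KO cells it stood 1.12 ± 0.27 above untreated at 0.5 h, which did not pass the test (adjusted p = 0.43 in limma). With 3 dye profiles regressed out its genotype difference had an adjusted p of 0.062.

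Against untreated WT cells, 0.5 h of HGF gave 1 called gene, Rpl28, where 0.123% of all probes were called. It had 0.40, 0.79 and 1.03 at 0.5 h, against -0.05 and -0.47 in the 2 untreated replicates measured (1.00 ± 0.16, adjusted p = 0.00621 in limma). The call was lost without WT 0 h replicate 3 and with its Cy5 sign turned. The median over the 54 genes was 0.33, 0.61 on Cy5 and 0.03 on Cy3 arrays, and 0.01 with that sign turned. In KO at 0.5 h no gene was called (limma; 1 with an unadjusted p under 0.05; 0.00686% of all probes called), and the median was -0.06 (0.13 on Cy5 and -0.23 on Cy3). The genotype difference of the 0.5 h response was called for no gene (15 with an unadjusted p under 0.05; 0.00686% of all probes called), with a median of -0.38 (-0.48 on Cy5 and -0.25 on Cy3), or -0.05 with that sign turned.

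Between 0.5 and 2 h of HGF, both mostly read in array set D, 5 genes fell in WT cells and 1 rose, where 14.5% of all probes were called in either direction. Over all probes 10.1% were called lower. The called genes were 11.1% of the 54, below the share of all probes, so their number does not set the members apart. The median was -0.19, with -0.47 on Cy5 and 0.08 on Cy3 arrays, and 36 of 54 genes had opposite signs on the 2 dyes. All 6 called genes had the same sign on both. The 5 that fell were Rpl28 (-0.75 ± 0.15), Rpl10a (-0.57 ± 0.18), Rpl36a (-0.57 ± 0.18), Rpl13 (-0.50 ± 0.16) and Rpl30 (-0.44 ± 0.14), with adjusted p of 0.00238 to 0.035 in limma. Rpl28 had -0.10, 0.10 and -0.03 at 2 h, against 0.40, 0.79 and 1.03 at 0.5 h. Rpl37, the gene that rose, had 0.58, 0.28 and 0.09 at 2 h, against -0.55, -0.07 and -0.28 at 0.5 h (0.62 ± 0.18, adjusted p = 0.0246 in limma). The 2 times did not overlap in either gene. In KO cells no gene was called over this step (limma; 3 with an unadjusted p under 0.05; 0.871% of all probes called). The KO median was 0.07, with -0.43 on Cy5 and 0.56 on Cy3 arrays, and 53 genes had opposite signs on the 2 dyes. Rpl28 had -0.10, -0.03 and -0.03 at 2 h, against -0.16, -0.33 and -0.17 at 0.5 h.

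At 2 h of HGF no member was called in any comparison with untreated cells or between genotypes (limma). Between KO and WT none had an unadjusted p under 0.05 and the median was -0.06 (-0.05 on Cy5 and -0.06 on Cy3; 0.432% of all probes called). Against untreated cells, 1 gene in KO (median 0.02; 0.0343% of all probes called) and 4 in WT (median 0.16; 0.446%) had an unadjusted p under 0.05. The medians were -0.30 on Cy5 and 0.30 on Cy3 in KO, and 0.17 on Cy5 and 0.10 on Cy3 in WT; with the sign of the doubted Cy5 array turned the WT median was -0.19. The genotype differences of the response at 2 h (median -0.13; 0.0274% of all probes called) and at 12 h (median -0.22; 0.0754%) had none, and with that sign turned both medians changed direction, to 0.20 at 2 h and 0.09 at 12 h. By dye they were -0.45 on Cy5 and 0.21 on Cy3 at 2 h, and -0.73 on Cy5 and 0.27 on Cy3 at 12 h.

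Before HGF, no gene of the 54 was called between KO and WT cells (limma; none with an unadjusted p under 0.05; 0.0617% of all probes called). The differences ran from -0.17 to 0.26 with a median of 0.05, which was -0.26 with the sign of the doubted Cy5 array turned. On Cy5 arrays the median was 0.37 and on Cy3 arrays -0.26, and 51 genes had opposite signs on the 2 dyes. Rpl28, for example, differed by 0.42 on Cy5 and -0.26 on Cy3 arrays.

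Averaged over the 5 times, 7 of 54 genes were lower in KO and none higher, where 10.1% of all probes were called. These were Rpl13a (-0.41 ± 0.07, adjusted p = 0.000192), Rpl28 (-0.36 ± 0.07, 0.000897), Rpl10a (-0.27 ± 0.08, 0.0312), Rps26 (-0.25 ± 0.06, 0.00867), Rps7 (-0.23 ± 0.06, 0.021), Rpl30 (-0.23 ± 0.06, 0.0148) and Rpl29 (-0.19 ± 0.06, 0.0343), all p from limma. Rpl13a was lower in KO at each of the 5 times, from -0.14 at 0 h to -0.63 at 24 h, and was called in all 40 alternatives, as Rpl28 was in all 39 that gave it a value. The median over the 54 genes was -0.15 (-0.07 on Cy5 and -0.23 on Cy3 arrays), 42 genes were below 0 on both dyes, and the count was 24 without WT 0 h replicate 3, 21 without WT 24 h replicate 3, 28 with the sign of the doubted Cy5 array turned and 35 when WT 0 h replicate 3 and KO 24 h replicate 2 were both left out.

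**Figure D4:**
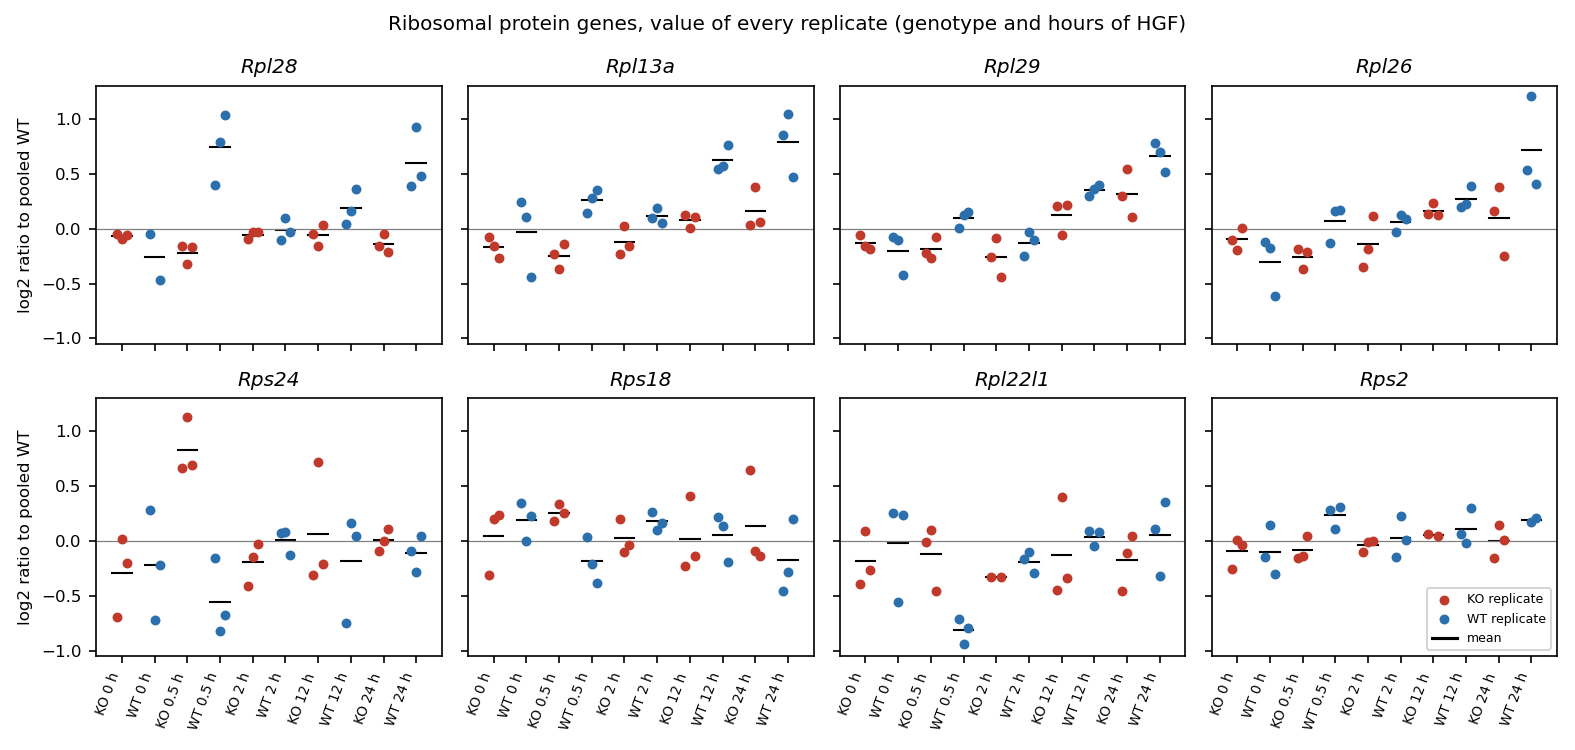
Log2 ratio to pooled WT RNA of every replicate (points; KO red, WT blue; bar, mean) for 8 ribosomal protein genes in the 10 groups. Rpl28 separates the genotypes at 0.5 and 24 h, Rpl13a sits lower in KO from 0.5 h on, Rps24 separates them at 0.5 h (0.67 to 1.13 in KO), and Rps2 stays between -0.30 and 0.31.

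The steadiest members were Rps2, a small subunit protein methylated by Prmt3, Rpl10, needed late in large subunit maturation, and Rps27l, a paralog of Rps27 induced by p53 in human cells. Their SDs of the 10 group means were 0.12, 0.12 and 0.15. Rps2 had 0.17 and 0.21 in the 2 WT replicates measured at 24 h, against -0.14, 0.14 and -0.30 untreated, a difference of 0.30 ± 0.14 that did not pass the test. Rps27l had 0.18, 0.43 and 0.16 in KO at 24 h, against 0.11, 0.17 and 0.02 in WT at 24 h, so that it was 1 of the 4 genes whose mean was higher in KO at that time. Rpl22l1, the paralog of Rpl22, had -0.01, 0.10 and -0.45 in KO at 0.5 h, against -0.71, -0.94 and -0.79 in WT. That difference of 0.69 ± 0.22 did not pass the test (adjusted p = 0.077 in limma) and had opposite signs on the 2 dyes (-0.30 on Cy5 and 1.68 on Cy3). Rpsa, a small subunit protein also described as a laminin receptor, was spread widely at 24 h, with -0.03, -1.53 and -0.32 in KO, against 0.58 and -0.61 in the 2 WT replicates measured.

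The 14 genes not tested had too few values in at least 1 group: Rpl11, Rpl12, Rpl22, Rpl24, Rpl3, Rpl35, Rpl37a, Rpl3l, Rpl41, Rps10, Rps12, Rps14, Rps19 and Rps20. Rpl3, at the peptidyl transferase centre, had 0.64, 0.88 and 0.38 in KO at 24 h, against 1.02, 0.90 and 0.25 in WT at 24 h. Untreated, it had 0.64, 0.50 and 0.20 in KO, against 0.37, 0.71 and -0.42 in WT. The genotypes overlapped at both times. Processed pseudogenes and paralogs of ribosomal protein genes are common, and probe sequences were not used here, so the signal of a gene and of its copies (Rpl39 and Rpl39l, for example) cannot be told apart.

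The response was also read by motif. In WT at 24 h against untreated, the 9 tested members with a TOP start had a median of 0.58 with 6 called, and the 37 tested members without one in the table had a median of 0.56 with 21 called. Rpl28 and Rps18, both with the run shown above, stood at 0.86 and -0.37. Members with CCGGAAG had a median of 0.57 (21 genes, 13 called), and those without it 0.58 (25 genes, 14 called). Members with AAGATGGC had a median of 0.78 (3 genes, 2 called), and those without it 0.57 (43 genes, 25 called).

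Lists of other genes of translation had smaller medians at 24 h of HGF in WT. Of 25 initiation factor genes 5 rose and 1 fell (median 0.17), with Eif3h, a subunit of the factor that loads messenger RNA, at 0.61 and Eif4a2, an RNA helicase, at -0.87. Of 6 elongation factor genes none was called (limma; 2 with an unadjusted p under 0.05; median 0.31). Of 15 other genes with TOP messages 3 rose (median 0.27). These were Eif3f, Eif3h and Eif3k, which are also counted among the 5 initiation factor genes that rose. Of 39 ribosome biogenesis genes 2 rose (median 0.06), and of 14 growth signalling genes 1, Tsc2, rose (median 0.11). Among 61 mitochondrial ribosomal protein genes 9 rose and 2 fell, with a median of 0.11, and Mrps21 rose by 0.92 ± 0.13. These counts are read against 8.72% of all probes.

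Genotype differences were also called for single genes of these lists, where 2.84% of all probes were called at 12 h and 4.77% at 24 h. Mrpl38, of the mitochondrial large subunit, was lower in KO at 24 h (-1.27 ± 0.13, adjusted p = 1.68e-06 in limma), with means of -0.09 in KO and 1.18 in WT. It was also called lower in KO at 0.5 and 12 h and averaged over the times (-0.75). Pik3r1, a regulatory subunit of phosphoinositide kinase, was higher in KO at 12 h by 1.23 ± 0.23 (adjusted p = 0.00216 in limma), with means of -0.24 in KO and -1.47 in WT. It was also called higher in KO at 0.5, 2 and 24 h and averaged over the times (1.04). Mrto4, a ribosome assembly factor, averaged -1.10 in KO and 0.45 in WT at 24 h (-1.55 ± 0.43, adjusted p = 0.0333 in limma), and its replicates overlapped. Its difference came mostly from the Cy3 arrays, with -2.68, against -0.42 on Cy5 arrays.

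Markers of hepatocytes and of other liver cells moved with the 24 h comparison in WT. Of 9 hepatocyte markers 4 fell and none rose, where 8.72% of all probes were called and 4.76% were called lower. The median of the list per replicate was -1.42 to -0.75 at 24 h, against -0.22 to -0.10 untreated. Asgr1, an asialoglycoprotein receptor subunit of hepatocytes, fell by 2.28 ± 0.20 and Apoa1, an apolipoprotein, by 1.60 ± 0.30. In KO, where 3.48% of all probes were called and 2.94% were called lower, 5 of the 9 fell, with replicate medians of -1.17 to -0.18 at 24 h, against -0.05 to 0.01 untreated. Of 5 Kupffer cell markers 2 fell in WT (replicate medians -0.47 to -0.12 at 24 h, against -0.24 to 0.06 untreated), with Mpeg1 at -1.52 and Marco at -0.77. Of 5 endothelial markers 1 fell (-0.40 to -0.07, against -0.20 to 0.14), of 6 stellate cell markers 1 fell (-0.16 to -0.05, against -0.18 to 0.20), and of 6 bile duct markers 2 rose and 1 fell (-0.09 to 0.37, against -0.22 to 0.10). Markers also differed between the genotypes, with 4.77% of all probes called at 24 h. At 24 h Asgr1 was higher in KO by 0.80 ± 0.20, and 8 of the 9 hepatocyte markers lay above 0 (median 0.26), with replicate medians of -1.17 to -0.18 in KO, against -1.42 to -0.75 in WT. Mpeg1, of macrophages, was higher in KO by 1.23 ± 0.23. The bile duct markers Cldn4 (-1.01 ± 0.21) and Krt7 (-0.55 ± 0.12) and the endothelial marker Dnase1l3 (-0.89 ± 0.23) were lower in KO, while no stellate cell marker was called (limma; 2 with an unadjusted p under 0.05). The replicate medians at 24 h were -0.25 to -0.02 in KO and -0.47 to -0.12 in WT for Kupffer cells, -0.60 to -0.24 in KO and -0.40 to -0.07 in WT for endothelium, -0.24 to 0.34 in KO and -0.16 to -0.05 in WT for stellate cells, and -0.46 to -0.15 in KO and -0.09 to 0.37 in WT for bile duct. The genotype difference of the 24 h response was called for Krt7 (-0.97 ± 0.17) and Cldn4 (-1.36 ± 0.32), 2 of 6 bile duct markers, and for none of the other 4 lists. By dye it was -1.06 on Cy5 and -0.89 on Cy3 for Krt7, and -2.49 on Cy5 and -0.19 on Cy3 for Cldn4. For this comparison 0.727% of all probes were called.

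At 0.5 h, where 4.3% of all probes were called, Cps1, a urea cycle enzyme of hepatocytes, was higher in KO by 1.18 ± 0.23. The stellate cell marker Dcn (-1.13 ± 0.22) and the bile duct marker Cftr (-1.17 ± 0.27) were lower. Both came mostly from the Cy3 arrays, with Dcn at -0.39 on Cy5 and -1.88 on Cy3, and Cftr at -0.34 and -2.00. Dcn was the only 1 of 6 stellate cell markers below 0 (median 0.24). Of the 9 hepatocyte markers, 6 were below 0 (median -0.11). Stellate cell replicate medians were -0.06 to 0.34 in KO, against -0.33 to 0.04 in WT. Those of bile duct were -0.39 to -0.08 in KO, against -0.03 to 0.07 in WT. No Kupffer cell or endothelial marker was called at 0.5 h (limma; 0 of 5 and 2 of 5 with an unadjusted p under 0.05). The endothelial replicate medians were -0.29 to -0.22 in KO, against 0.23 to 0.28 in WT, and those of hepatocytes were -0.12 to -0.05 in KO, against -0.02 to 0.06 in WT. Averaged over the times, Asgr1, Cps1, Mpeg1 and Acta2 were called higher in KO, and Cftr, Cldn4, Clec4g and Dnase1l3 lower. Over all probes 10.1% were called in that comparison. Ratios to a pool do not show whether a marker is absent, and the part of these markers in the ribosomal protein differences was not tested.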

How the data were processed

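RNA of 30 replicates (10 groups of 3) was read on 60 two-colour arrays. The deposited values were taken as log2 ratios because their largest absolute value is 11.6. How the authors normalized them is not stated in these sources. The number of arrays limits the precision. Times were taken from the sample titles, since 1 field of the 12 h samples reads 0.5 h. Probes were named through the platform annotation, updated by gene identifier: 16076 of 21997 had 1 symbol, 288 several and 5633 none.

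Arrays were median-centred and both dye orientations of a replicate averaged. Testing needed 2 or more replicates with both orientations in every group (14580 probes). The 30 replicates were fitted with 10 group means in limma 3.58.1 under R 4.3.3 (20 residual and 4.48 prior degrees of freedom), and probes with a Benjamini-Hochberg adjusted p under 0.05 were called. Missing replicates were dropped from a gene's fit. Tests were two-sided. The fit was tested on simulated data. Replicates are cultures labelled as coming from different mice, and the labels do not say whether times share a mouse. Replicate number was not used to pair samples. After group means were removed, 10 of 30 replicates correlated best on average with those of their own number at other times of their genotype. That count cannot settle whether samples are paired. Named genes were up to 3 called members per comparison and direction, the 5 most and 3 least variable, a panel of members with known roles, and up to 2 called genes of each other list; further members were named from complete lists of calls. The members and lists were chosen with earlier results of these data known. Alternatives changed centring, scaling, weights, the sign of 1 array, dye profiles, a replicate block, array set, the filter, the probes of a gene, the samples fitted and each replicate in turn. Those within array set C (by the Cy5 array, or by both arrays) and without both doubted replicates (WT 0 h replicate 3 and KO 24 h replicate 2) were chosen after seeing the data.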

Additional observations from a re-analysis of the deposited data

Results flagged for a closer look

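The response of Rpl28 to 24 h of HGF differed between the genotypes by -0.94 ± 0.22 (KO minus WT, adjusted p = 0.0438 in limma), in a test of the difference itself. The response was -0.08 in KO and 0.86 in WT, on Cy5 arrays the difference was -0.91 and on Cy3 arrays -0.74. It rests on 2 untreated WT replicates, of which 1 is the doubted replicate 3. Without that replicate or with the sign of its Cy5 array turned, the difference did not pass the threshold.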

How the results depend on the processing

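The direction of all 23 named gene results held under all alternatives, and 358 of 457 such values stayed past the threshold. These results were picked as the largest called changes and refitted on the same data, so the kept direction adds no support. No alternative fitted single genes on 1 dye alone. Rpl15 at 12 h in WT, among the 23, was not above 0 on both dyes. With a replicate block (correlation -0.002) 33 members were called for HGF 24 h in WT, 9 for HGF 12 h in WT and 5 for KO against WT at 24 h, and the block changed no call in any comparison.

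Counts of called members moved as follows. For HGF 24 h in WT (33) they were 17 with scaled arrays, 8 with group weights, 6 with the sign of the doubted Cy5 array turned, 0 with only the groups compared, 10 with both arrays in set C, and 14 to 42 leaving out 1 replicate. For HGF 12 h in WT (9) they were 16 without centring, 2 scaled, 4 weighted, 1 with the sign turned, 35 with dye profiles removed, 15 with all replicates required, 0 with only the groups compared, 0 in array set C and 1 to 16 leaving out 1 replicate. For HGF 0.5 h in WT (1) they were 2 scaled, and 0 weighted, with the sign turned, with array set as a term, with all replicates required and with only the groups compared, and 0 to 9 leaving out 1 replicate. For HGF 2 h in WT (0) they were 1 scaled, 1 with the sign turned (median -0.19), 1 with dye profiles removed and 0 to 1 leaving out 1 replicate.

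For HGF 24 h in KO (1) they were 14 with dye profiles removed, 17 with array set as a term, and 0 weighted, with the mean of all probes, with only the groups compared and in array set C, and 0 to 4 leaving out 1 replicate. For 2 h against 0.5 h in WT (6) they were 10 scaled, 18 weighted, 19 with array set as a term, 19 with only the groups compared and 1 to 3 leaving out 1 replicate. For the same step in KO (0) they were 1 scaled, 2 weighted, 1 with dye profiles removed, 3 with array set as a term, 1 with all replicates required and 1 with only the groups compared.

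For KO against WT at 0.5 h (4) they were 34 weighted, 1 with dye profiles removed, 29 with array set as a term, 17 with only the groups compared and 2 to 4 leaving out 1 replicate. At 12 h (0) they were 2 with dye profiles removed, 2 with array set as a term, and 1 without centring, weighted, with the sign turned, with all replicates required, with the mean of all probes, with only the groups compared and in array set C. At 24 h (5) they were 3 scaled, 0 weighted, 22 with array set as a term, 3 with all replicates required, 0 with only the groups compared, 0 with both arrays in set C and 1 to 16 leaving out 1 replicate. Averaged (7) they were 28 with the sign turned, 35 with array set as a term and 5 to 24 leaving out 1 replicate. Without both WT 0 h replicate 3 and KO 24 h replicate 2 the count was 35. For the genotype difference of the response at 0.5 h (0) they were 0 to 3 leaving out 1 replicate. At 24 h (1) they were 0 scaled, weighted, with the sign turned, with dye profiles removed and with array set as a term. They were also 0 with all replicates required, with only the groups compared and in array set C. The count was 0 as well without both WT 0 h replicate 3 and KO 24 h replicate 2. Leaving out 1 replicate gave 0 to 3.

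Group medians depend on the dye. On Cy5 arrays alone they were 0.30 in KO at 0 h, 0.44 in KO and 0.51 in WT at 0.5 h, 0.0265 in KO at 2 h, 0.63 in KO and 0.95 in WT at 12 h, and 0.59 in KO and 0.82 in WT at 24 h. On Cy3 arrays alone they were -0.42 in KO at 0 h, -0.70 in KO and -0.14 in WT at 0.5 h, -0.35 in KO and -0.38 in WT at 12 h, and -0.30 in KO and 0.0608 in WT at 24 h. Array set, where not said to be of both arrays, is that of the Cy5 array. The causes of these shifts were not tested.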
